A study of Mus musculus with 7 samples.

Results

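Open intergenic regions far from start sites were described in the accessible chromatin of mouse muscle stem cells (MuSCs). They were chosen by peak calls. Peaks of 4 ATAC-seq libraries on chromosomes 1 to 19 were merged into 120444 regions, of which 60354 held a peak in all 4 libraries. Of these, 17361 lay outside every gene body of the GENCODE M21 annotation (mouse build mm10) and 10674 were also more than 10 kb from every transcript start. A further 1231 overlapped a TRF2 CUT&Tag peak of either replicate and were set aside, which left 9443 open intergenic regions, 15.6% of the shared regions.

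TRF2, encoded by Terf2, is a telomere-binding protein of the shelterin complex. The MuSCs for ATAC-seq were sorted from uninjured hind limb muscle (labelled 0 h) of 2 control libraries and 2 TRF2KO libraries, called biological replicates by the submitters. TRF2KO mice carried loxP-flanked TRF2 alleles and a Cre recombinase expressed from Pax7, a gene of MuSCs, which tamoxifen switches on, so deletion was restricted to cells that used Pax7 at the time of treatment. All mice were on a C57BL/6 background and tamoxifen was begun in young adults, and the alleles of the ATAC-seq control mice were not given beyond that. Age at sorting and the number of mice per library were not given in the sources used here. In the labels all 4 carry the genotype entry Wildtype, so the titles gave the groups. The TRF2 CUT&Tag libraries, 2 with TRF2 antibody and 1 with IgG, came from injured tibialis anterior muscle of mice labelled Wildtype, at day 3 after notexin by the labels. The methods disagree with the labels here: they give a shorter time, gastrocnemius as well as tibialis anterior, and control mice with a Pax7 Cre allele and a tdTomato reporter. The TRF2 peaks that were set aside therefore belong to another state of the tissue than the ATAC-seq libraries.

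The gate removed cells with CD45, CD31, CD11b or Sca1 and kept cells with VCAM or CD34 together with integrin alpha 7. All 8 MuSC genes checked (among them Pax7, Myf5, Calcr and Cdh15) had a peak over a transcript start in all 4 ATAC-seq libraries. Of 14 genes of other cells, 9 had none in any library, including Ptprc, Itgam, Pecam1 and Ly6a, which encode the antigens that were gated out. Cdh5 had one in control 2 only, and Pdgfra, Dpt and Kcnj8, genes of fibroblasts and mural cells, had one in all 4 libraries. The fold at the Dpt start was 118 and 34.2 in the controls and 28.1 and 26.3 in TRF2KO, and at the start of Itga7, which encodes integrin alpha 7, 73.4 and 68.0 against 35.0 and 32.5. The part of these differences in the results was not tested. In sorted bulk cells, fewer open cells and less signal per cell cannot be told apart. The peak over the Terf2 start had a fold over background of 54.3 and 48.4 in the controls and of 21.5 and 18.6 in TRF2KO. Which exons the loxP sequences flank was not given in the sources used here, so this start peak does not check the deletion. The libraries held 84103 to 100522 peaks.

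Open chromatin far from promoters is where most enhancers and insulators lie. Enhancers are bound by combinations of sequence-specific factors and raise transcription of genes that may be far away. Insulators and loop anchors are bound by CTCF, a zinc finger protein that halts cohesin. In muscle cells, the myogenic regulators MyoD, Myf5 and myogenin pair with E proteins and bind E-boxes, of which CAGCTG is the form they prefer. AP-1, a dimer of Fos and Jun proteins, binds TGANTCA and is switched on early when MuSCs are disturbed.

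The sequence under the strongest of these regions is shown first, because the patterns counted further on are short. The 4 sequences that follow are 120 bases around the mean summit of the 4 highest ranked regions that are also in both deposited consensus peak lists, plus strand of mm10. Capitals mark any of the 13 patterns spelled out further on.
Region near Wsb1, chr11:79224736-79224855: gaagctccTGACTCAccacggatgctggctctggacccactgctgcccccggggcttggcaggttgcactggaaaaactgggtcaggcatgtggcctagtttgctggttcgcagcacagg
Region near Lmo2, chr2:103927736-103927855: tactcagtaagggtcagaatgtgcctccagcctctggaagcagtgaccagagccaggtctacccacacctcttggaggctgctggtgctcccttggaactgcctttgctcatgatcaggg
Region near Tas1r2, chr4:139697890-139698009: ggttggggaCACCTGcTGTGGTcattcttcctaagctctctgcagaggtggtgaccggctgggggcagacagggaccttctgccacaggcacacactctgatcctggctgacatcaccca
Region near Scmh1, chr4:120380892-120381011: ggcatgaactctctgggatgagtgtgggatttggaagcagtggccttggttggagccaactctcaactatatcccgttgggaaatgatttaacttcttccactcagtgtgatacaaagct

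The region near Wsb1 holds an AP-1 pattern and the region near Tas1r2 an E-box beside a RUNX pattern. These 120 bases hold none of the patterns near Lmo2 and Scmh1, although 300 bases hold AP-1 near Scmh1.

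For each of 4 patterns, 60 bases are shown around the match in the highest ranked region that has one. Capitals mark the match, and each is printed on the strand that reads as the pattern.
CTCF, near Ano5, chr7:51300519-51300578, plus strand: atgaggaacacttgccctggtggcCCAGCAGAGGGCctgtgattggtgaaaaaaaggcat
AP-1, near Wsb1, chr11:79224717-79224776, plus strand: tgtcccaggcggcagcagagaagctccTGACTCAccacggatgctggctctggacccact
E-box, near Wsb1, chr11:79224655-79224714, plus strand: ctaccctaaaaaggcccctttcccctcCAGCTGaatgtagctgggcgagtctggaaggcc
NFI, near Gsdmc, chr15:62903162-62903221, minus strand: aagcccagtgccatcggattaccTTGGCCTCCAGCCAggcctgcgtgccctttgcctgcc

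The open intergenic regions had a median width of 772 bp, with 5% under 348 bp and the widest at 6872 bp, and covered 8.64 Mb in all. The nearest start of any annotated transcript lay a median of 25.8 kb away, and the farthest was 545 kb away. At the distance limit, 429 regions at 10 to 11 kb had a median fold rank of 58.0, and 466 intergenic TRF2-free regions at 9 to 10 kb, just outside it, had 58.99. The rank is the percentile of a region's MACS fold in the whole peak list of a library, averaged over the 4 libraries.

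They were spread over all 19 autosomes, with 10.6 regions per Mb of sequence that could have held one (893 Mb outside gene bodies and over 10 kb from starts). Chromosome 9 had the highest density, 14.4 per Mb, and chromosome 14 the lowest, 6.17 per Mb. Neighbouring regions lay a median of 32.3 kb apart. They occupied 4163 stretches between neighbouring gene bodies, 2114 of which held a single region, while 441 stretches with 5 or more held 33.3% of all regions.

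The stretch with the most regions lay between Irf2bp2 and Gm45805 (chr8:126593987-126755570) and held 22 regions in 162 kb. Irf2bp2 encodes a transcriptional co-repressor. Next were the stretches between 4631405K08Rik and Gm21362 and between Cdh26 and Gm14314, with 20 regions each. The stretch beside Sox6, a gene that represses slow fibre genes in muscle, held 18 regions, all of them nearest to Sox6 among coding genes. The stretch between Gm12506 and Gm12519, whose regions are nearest to Klf4, held 17, and that between Bbs9 and Bmper, an extracellular regulator of BMP signals, held 17.

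By nearest coding start, 3544 genes had at least 1 open intergenic region and 117 genes had 10 or more. Tshz3, a zinc finger transcription factor gene, and Camk1g, a kinase gene, had 29 each, at 13.8 to 440 kb and 14.3 to 579 kb. Irf2bp2 had 25, Tnp1 had 22, and Cog6, Mki67, Rnd3 and Zfp36l1 had 21 each. Klf4, N6amt1 and Cops8 had 20 each. For Mki67, a proliferation marker, the nearest of the 21 regions lay 121 kb from the start. Nearness is a position only, and no contact with a gene was measured.

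The MACS fold is the pileup of fragments at the summit over the background, with the pseudocount of MACS in both. In the open intergenic regions its median was 11.05 and 9.72 in the 2 controls and 9.83 and 9.08 in TRF2KO. Over all shared regions the same medians were 14.5, 12.8, 12.8 and 11.8. Shared regions within 3 kb of a start had medians of 20.7 to 23.5, and shared intronic regions over 10 kb from a start and free of TRF2 peaks had 8.40 to 10.8. The deposited fold and p-value together gave back whole fragment pileups for every open intergenic region, with medians of 47, 53, 42 and 39 fragments at the summit in control 1, control 2, TRF2KO 1 and TRF2KO 2. The background recovered with them was 3.345, 4.557, 3.372 and 3.406 fragments in the same order. Within each library it was the same from the 5th to the 95th percentile of these regions, so the fold was not scaled to a local background. Counting error alone at these depths gives a standard error of 0.22 (median) on a log2 difference between genotypes.

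The highest ranked region, chr6:49236450-49236734 near Igf2bp3, had folds of 174, 154, 196 and 181 in control 1, control 2, TRF2KO 1 and TRF2KO 2. It is only 285 bp wide and is absent from both consensus lists, although GoPeaks found it in all 4 libraries. The region near Wsb1 (chr11:79224100-79226467) had 172, 142, 175 and 177. The 3543 bp region near Lmo2 (chr2:103925535-103929077) had 166, 150, 163 and 163, and the 5944 bp region near Tas1r2 (chr4:139696141-139702084) had 156, 140, 146 and 163. The genotypes overlapped near Lmo2 and Tas1r2. Near Igf2bp3 and Wsb1 both TRF2KO values were above both controls as deposited, and the quantile-normalized log2 differences were 0.04 and 0.01.

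A region 179 kb from Runx1 (chr16:93004909-93007991) had folds of 153, 124, 155 and 156. Runx1 encodes a transcription factor that is induced in injured muscle. Regions near Scmh1, Pold3, Tprg, Mki67 and Chrdl2 completed the first 10, with folds from 117 to 159. The fitted TRF2KO to control ratio of these 10 regions ran from 0.88 (near Chrdl2) to 1.03 (near Igf2bp3), and none passed the test described further on.

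The other callers differed in how many of these regions they found. GoPeaks overlapped 95.1% and 95.4% of them in the controls and 92.6% and 90.9% in TRF2KO, a difference of -3.49 points (exact permutation test, 2 libraries each, p = 0.33, the smallest that 2 against 2 allows). SEACR, run in its stringent mode, overlapped 43.3% and 33.4% in the controls and 40.3% and 36.5% in TRF2KO, and these overlapped between genotypes (exact permutation p = 1). For comparison, SEACR overlapped 70.9% to 76.8% of the regions within 3 kb of a start. Of the open intergenic regions, 85.6% were in both consensus lists, 600 in the control list only, 234 in the TRF2KO list only and 527 in neither. Those in neither list had a median rank of 23.6, and 6 of them ranked above 90. An IgG peak overlapped 8 of them (0.0847%, exact 95% interval 0.0366 to 0.167%). The IgG list held only 640 peaks on these chromosomes. Of the 1231 regions set aside for a TRF2 peak 3.41% overlapped one, so the low share partly follows from the choice of regions.

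The summit was placed alike in all libraries. The 4 summits of a region spanned a median of 44 bp, and 606 regions (6.42%) had a span over 300 bp. Control 1 and control 2 summits lay a median of 16 bp apart, and summits of a control and a TRF2KO library 18 bp. Across the 9443 regions the log2 fold of the 2 controls correlated with r = 0.969, of the 2 TRF2KO libraries with r = 0.960, and between genotypes with 0.917 to 0.923. These are correlations across regions, which share their libraries and the range of peak heights, and are given as a description.

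Short patterns were counted on both strands in 300 bases around the mean summit, in mm10 sequence from RefSeq. They were CTCF (CCANNAGNNGGC), AP-1 (TGANTCA), E-box (CAGCTG or CAGGTG), NFI (TTGGCNNNNNGCCA), RUNX (TGTGGT), TEAD (GGAATG), MEF2 (CTANNNNTAG), ETS (CCGGAAG), FOX (TGTTTAC), SP/KLF (GGGCGG), NRF1 (GCGCNTGCGC), STAT (TTCCNGGAA) and TCF/LEF (CTTTGAT). A match is a string of letters, and binding was not measured. In base composition the open intergenic regions matched intronic distal regions (median GC 49.7% in both), with a median of 4 CpG in the window, against 58.0% GC and 12 CpG within 3 kb of a start.

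The E-box was the most frequent pattern, in 4681 regions (49.6%, exact 95% interval 48.6 to 50.6%). It was in 49.9% of intronic distal regions, 41.1% of shared regions within 3 kb of a start and 33.2% of 31396 RefSeq promoters of the same length. RUNX followed with 23.2%, TEAD with 21.2% and AP-1 with 18.7% (interval 17.9 to 19.5%). AP-1 was in 18.7% of intronic distal regions and in 40.2% of the 1231 intergenic distal regions with a TRF2 peak. Within 3 kb of a start it was in 10.8%, and in RefSeq promoters in 7.84%. CTCF was in 969 open intergenic regions (10.3%, interval 9.66 to 10.9%) against 6.97% of intronic distal regions (interval 6.47 to 7.50%). It was in 7.98% of regions within 3 kb of a start, 8.95% of all shared regions and 2.47% of RefSeq promoters. NFI was rare, at 0.646%. Patterns of housekeeping promoters were scarce. SP/KLF was at 8.93%, against 43.5% within 3 kb of a start and 36.0% in RefSeq promoters. NRF1 was at 0.339%, against 5.08% and 4.68%. Sequence that could fold into a G-quadruplex (at least 4 runs of 3 or more G, with 1 to 7 bases between them, on either strand) was in 6.59% of open intergenic regions. Its share was 19.9% within 3 kb of a start, 18.8% in RefSeq promoters and 12.1% in intergenic distal regions with a TRF2 peak. The telomeric repeat, TTAGGG in 3 successive copies on either strand, was in 0 of 9443, which allows a share of up to 0.0318% by 3 counts and of 0.0391% by the exact 95% interval. It was in 10 of the 1231 intergenic distal regions with a TRF2 peak (0.812%). TRF2 binds telomeres and the rule set regions with a TRF2 peak aside, so the count of 0 partly follows from the choice of regions.

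**Figure D1:**
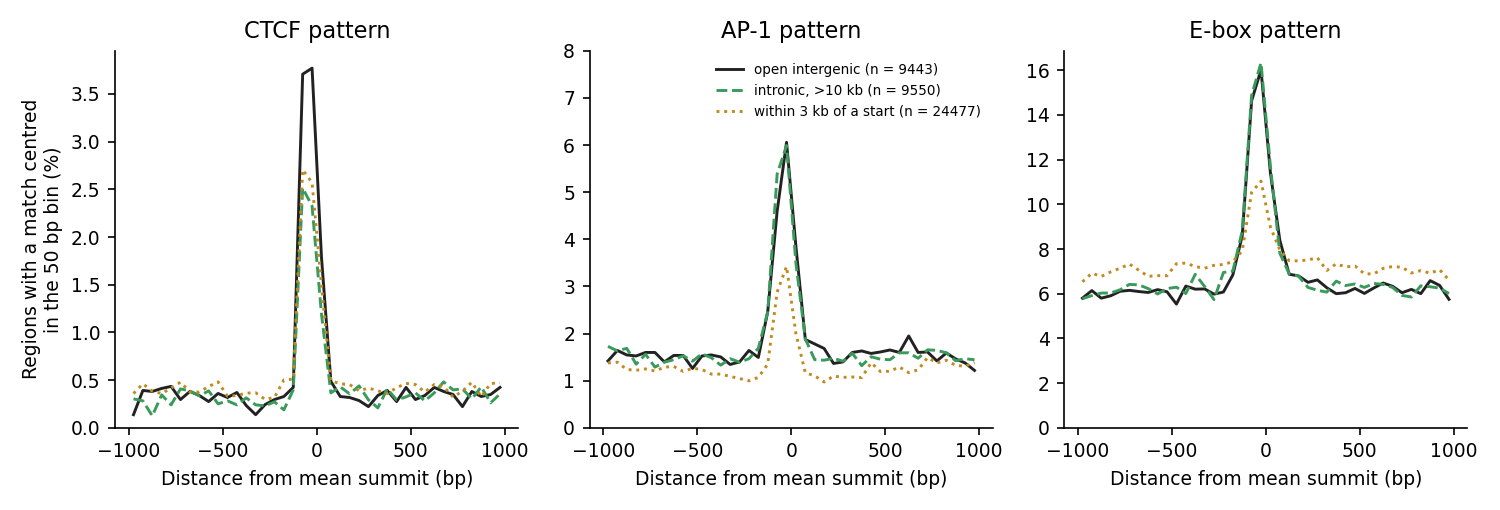
Share of regions (%) with a match centred in each 50 bp bin, against the distance from the mean summit (bp), for the CTCF, AP-1 and E-box patterns; solid lines are the 9443 open intergenic regions, dashed lines 9550 intronic regions over 10 kb from a start, dotted lines 24477 regions within 3 kb of a start. In the open intergenic regions the bin just below the summit reaches 3.77% for CTCF, 6.06% for AP-1 and 16.0% for the E-box.

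Matches were gathered at the summit. In the bin 0 to 50 bp below it, 3.77% of open intergenic regions had a CTCF match, and in the bin centred 475 bp below it 0.318% did. For AP-1 the same bins gave 6.06% and 1.52%, and for the E-box 16.0% and 5.54%. The profile was not symmetric. When the match nearest to each library's own summit was taken within 100 bp, CTCF matches lay at a median of -40 bp (negative towards lower coordinates) in control 1 and both TRF2KO libraries and of -41 bp in control 2. For AP-1 the medians were -22.0 to -20.5 bp, and for the E-box -16 to -14 bp.

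**Figure D2:**
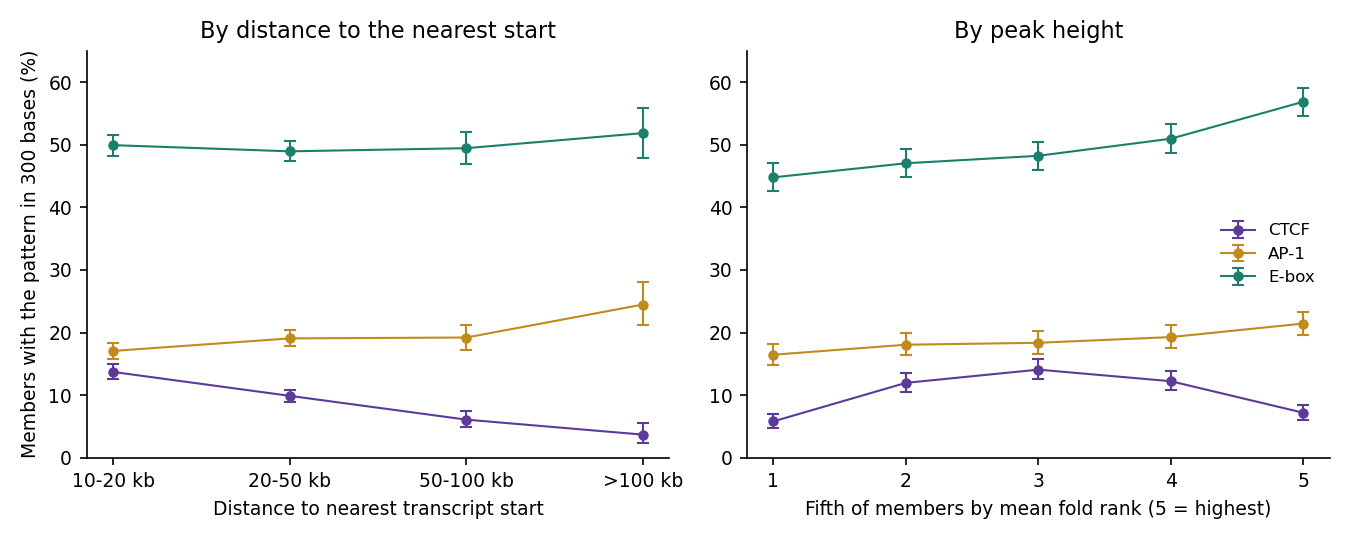
Share of open intergenic regions (%) with the CTCF, AP-1 or E-box pattern in 300 bases, by distance to the nearest transcript start (left) and by quintile of the mean fold rank (right, 5 the highest); points are shares and bars exact 95% intervals. CTCF falls from 13.7% at 10 to 20 kb to 3.70% over 100 kb, AP-1 rises from 17.1% to 24.5%, and the E-box stays between 48.9% and 51.9%.

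The patterns changed with distance and with peak height. CTCF was in 13.7% of regions 10 to 20 kb from a start (n = 3427, interval 12.6 to 14.9%), 9.90% at 20 to 50 kb, 6.10% at 50 to 100 kb and 3.70% over 100 kb (n = 621, interval 2.36 to 5.51%). AP-1 went the other way, from 17.1% (interval 15.8 to 18.4%) to 24.5% (interval 21.1 to 28.1%). The E-box share lay between 48.9% and 51.9% at every distance. By quintiles of rank, which come from the same folds that chose the regions, CTCF was in 5.82% of the lowest quintile, 14.1% of the middle one and 7.20% of the highest, while the E-box went from 44.8% to 56.9% and AP-1 from 16.5% to 21.4%.

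Loss of TRF2 was compared with control at each region by limma on quantile-normalized log2 MACS fold, fitted over all 60354 shared regions, with p-values adjusted over all of them (Benjamini-Hochberg). At an adjusted p under 0.05, 509 open intergenic regions (5.39%) were higher in TRF2KO, where the background over all shared regions was 4.73%. In the other direction 768 (8.13%) were lower, where the background was 7.17%. Together 1277 (13.5%, exact 95% interval 12.8 to 14.2%) were called, against 11.9% of all shared regions, so with this scaling the share was close to the background. The median log2 difference was 0.01 over the open intergenic regions and 0.02 over all shared regions, and the median size of a call was 0.72 for higher and 0.69 for lower. A difference of more than 2-fold was fitted for 175 regions, 76 higher and 99 lower. That count was not made over all shared regions. The 5th and 95th percentiles of the log2 difference were -0.65 and 0.60 in the open intergenic regions and -0.60 and 0.52 over all shared regions.

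The split between directions depended on the scaling. Higher and lower calls numbered 509 and 768 with quantile normalization, 1013 and 859 with median centring, 195 and 807 with no normalization, and 115 and 1165 on percentile ranks. With median centring 19.8% of open intergenic regions were called, against 26.1% of all shared regions. With no normalization these shares were 10.6% and 8.31%, and on percentile ranks 13.6% and 12.1%. Whether the share lay above or below the background thus also depended on the scaling. In all 4 scalings 110 open intergenic regions were called higher and 630 lower, and every one of the 509 and 766 of the 768 kept their direction. The matching share over all shared regions was not computed. Leaving out any 1 library left no call in any region, with 15.8% to 18.9% of the open intergenic regions at an unadjusted p under 0.05 by limma. The counts therefore rest on all 4 libraries together.

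**Figure D3:**
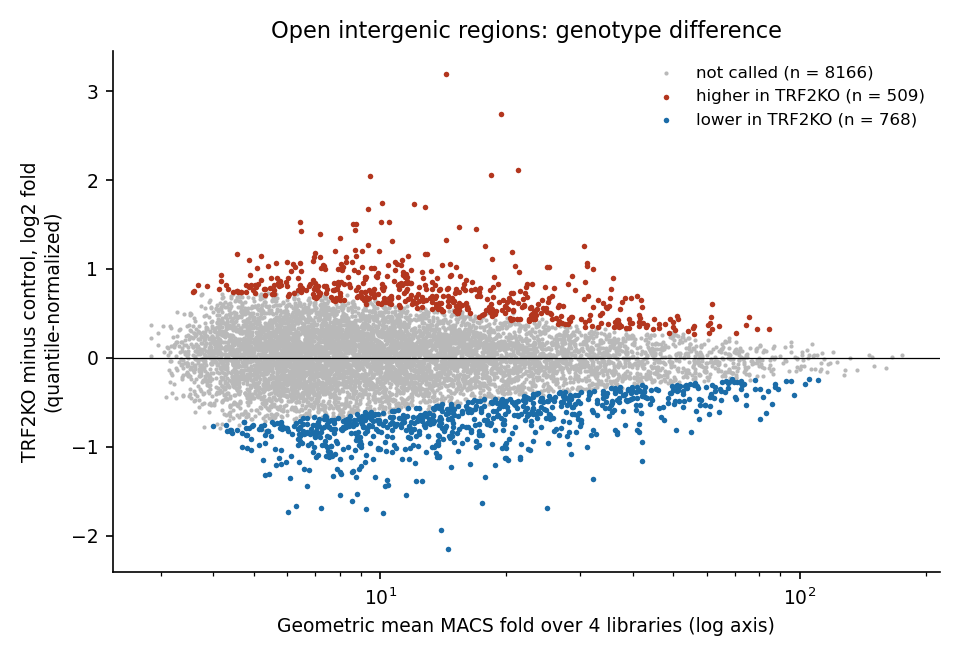
Log2 difference TRF2KO minus control (quantile-normalized) against the geometric mean MACS fold of the 4 libraries (log axis), 1 point for each of the 9443 open intergenic regions. Red points are the 509 called higher in TRF2KO, blue points the 768 called lower and grey points the 8166 not called, and the largest log2 difference is 3.19.

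The largest rise was near Gdf6, a BMP family ligand gene, 421 kb from its start. There (chr4:10265526-10266663) the fold was 4.37 and 5.40 in the controls and 42.1 and 43.1 in TRF2KO, a log2 difference of 3.19 (SE 0.18, limma adjusted p = 5.43e-10). This region and the rises and falls that follow were picked by their differences, so a gap between the genotypes follows largely from the choice.

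A region 34.9 kb from Col18a1, which encodes the chain of a basement membrane collagen, had folds of 7.36 and 8.10 in the controls and 50.3 and 47.7 in TRF2KO (chr10:77201497-77202855). Its log2 difference was 2.75 (SE 0.15, limma adjusted p = 5.43e-10). The genotypes did not overlap, and GoPeaks found the region in all 4 libraries. Near Itm2b (chr14:73444843-73446491) the folds were 10.1 and 10.98 against 50.1 and 37.4. Near Dio3, an enzyme gene that inactivates thyroid hormone, they were 21.6 and 18.9 against 49.6 and 43.4 (log2 difference 1.25, SE 0.11). A region 42.0 kb from 2610301B20Rik had 5.06 and 4.68 against 22.2 and 15.2, and GoPeaks listed it in both TRF2KO libraries and in neither control. The other regions among the 10 rises with the smallest p were near Zfp608, Olfr875, Fam49a, Adamts15 and Tmem114, with log2 differences from 1.06 to 2.06.

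The fall with the smallest p lay 81.7 kb from Ppp1r26 (chr2:28364101-28365129). Its fold was 48.1 and 44.1 in the controls and 12.6 and 14.8 in TRF2KO, a log2 difference of -1.69 (SE 0.13, limma adjusted p = 9.35e-08). The deepest fall, 44.9 kb from Igf1 (chr10:87812171-87813328), went from 35.9 and 27.9 to 7.78 and 5.67, a log2 difference of -2.15 (SE 0.17). Igf1 encodes a growth factor that drives muscle growth and repair. In both regions the genotypes did not overlap, which again follows largely from the choice.

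Near Adra2c, an adrenergic receptor gene, the folds were 31.1 and 26.1 against 6.63 and 7.04 (log2 difference -1.94, SE 0.17). Near Alpl, the tissue-nonspecific alkaline phosphatase gene, they were 35.0 and 29.3 against 9.83 and 9.31. Near Klhl42 they were 64.0 and 61.9 against 30.6 and 25.9, and near Ankrd50 52.7 and 51.3 against 17.8 and 22.0. A region 132 kb from Tle3, a co-repressor gene, went from 42.6 and 41.9 to 18.98 and 19.5 (log2 difference -1.08, SE 0.12). The others among the 10 were near Gm5294, Trim29 and Trabd2b. Of these 10 falls, 7 had an E-box pattern in the 300 bases, and of the 10 rises 4 had one.

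**Figure D4:**
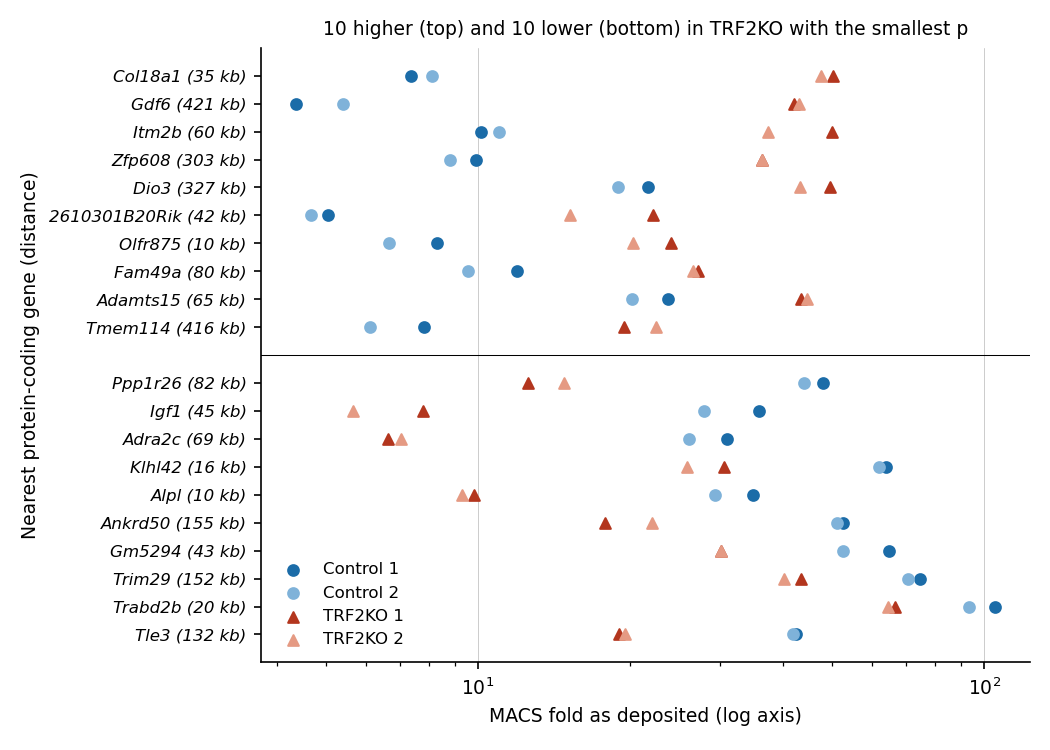
MACS fold as deposited (log axis) in each library for the 10 open intergenic regions higher in TRF2KO with the smallest p (top) and the 10 lower (bottom), named by the nearest protein-coding gene with the distance to its start; circles are control libraries and triangles TRF2KO libraries. In all 20 regions the 2 control values and the 2 TRF2KO values do not overlap, which follows largely from the choice by smallest p.

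Letters at some of these regions are shown because the E-box and AP-1 patterns differed between calls. The 3 falls with the smallest p that hold an E-box and the 2 rises with the smallest p that hold AP-1 are printed as 60 bases around the match nearest to the summit, plus strand, with the match in capitals. They were chosen after the values were seen.
Lower, near Ppp1r26, chr2:28364561-28364620: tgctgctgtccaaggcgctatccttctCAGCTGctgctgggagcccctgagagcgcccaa
Lower, near Igf1, chr10:87812398-87812457: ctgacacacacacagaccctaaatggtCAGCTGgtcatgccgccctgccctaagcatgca
Lower, near Adra2c, chr5:35209488-35209547: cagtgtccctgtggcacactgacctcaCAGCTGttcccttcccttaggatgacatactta
Higher, near Col18a1, chr10:77202086-77202145: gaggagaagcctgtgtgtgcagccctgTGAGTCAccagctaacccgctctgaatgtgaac
Higher, near Fam49a, chr12:12181853-12181912: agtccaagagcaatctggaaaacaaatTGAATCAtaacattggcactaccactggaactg

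The E-box was in 508 of the 768 regions called lower (66.1%, exact 95% interval 62.7 to 69.5%), in 215 of the 509 called higher (42.2%, interval 37.9 to 46.7%) and in 48.5% of those not called. AP-1 showed the reverse order, with 29.7% of the higher (interval 25.7 to 33.8%), 15.1% of the lower (interval 12.6 to 17.8%) and 18.4% of the rest. FOX was in 7.66% of the higher and 2.47% of the lower, and TEAD in 19.8% and 27.7%. These shares moved little with the scaling. Under median centring, no normalization and percentile ranks the E-box was in 64.6% to 65.9% of the lower and 43.1% to 47.8% of the higher, and AP-1 in 14.1% to 14.6% and 27.8% to 34.9%. Intervals over regions cover counting error only, since regions share the same 4 libraries.

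Within each library, the median log2 fold of regions with an E-box exceeded that of regions without by 0.27 and 0.26 in the controls and by 0.13 and 0.11 in TRF2KO. The offset was thus smaller in both TRF2KO libraries than in both controls, a difference of -0.14 on the log2 scale (exact permutation test, 2 libraries each, p = 0.33, the smallest possible). Taken as a whole, regions with an E-box had a median log2 difference of -0.04 and those without 0.06. Regions with an E-box had the lower median in each quintile of rank and each quintile of GC content. In intronic distal regions the offset was 0.27 and 0.24 in the controls and 0.14 and 0.12 in TRF2KO, so the difference was not limited to open intergenic regions. Within 3 kb of a start the offset was below 0 in every library. There it was -0.44 and -0.47 in the controls and -0.63 and -0.64 in TRF2KO, a difference of -0.18.

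The 2 letter forms of the E-box did not behave alike. CAGCTG was in 58.7% of the regions called lower, 33.4% of the higher and 36.9% of the rest, and CAGGTG in 19.01%, 13.0% and 17.8%. The offset of CAGCTG was 0.35 and 0.33 in the controls and 0.17 and 0.14 in TRF2KO, and that of CAGGTG 0.03 and 0.05 against 0.00 and 0.00. The split into forms was made after the values were seen. Among all 2080 words of 6 letters (each counted with its reverse complement), CAGCTG had the largest gap on the lower side, a higher minus lower share of -25.3 points, followed by AGCTGC, which overlaps it, with -17.9. At the other end were TAAACA, a part of the FOX pattern, with 10.7 points more in the higher, then AAGAAA with 10.2 and CAAAAC with 10.05, which belong to none of the patterns searched, and GAGTCA, a part of AP-1, with 9.97.

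Calls also followed the number of CAGCTG occurrences. With none in the 300 bases (n = 5810), 5.46% of regions were called lower and 5.83% higher. With 1 (n = 2801) these were 10.8% and 5.25%, with 2 (n = 707) 16.1% and 2.83%, and with 3 or more (n = 125) 27.2% and 2.40%. The median log2 difference went from 0.06 through -0.03 and -0.15 to -0.23. The median rank rose over the same 4 groups, from 54.4 to 66.6, and the median GC content from 49.3% to 52.3%. The part of either in the calls was not tested beyond the quintiles given above.

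**Figure D5:**
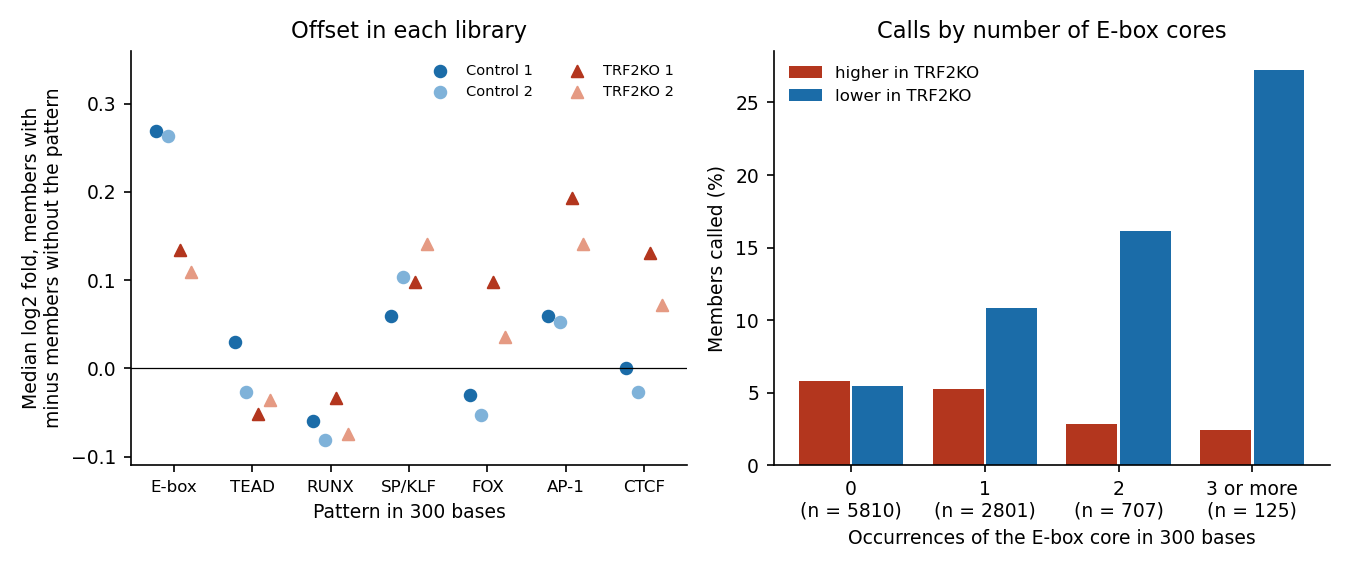
Left, median log2 fold of open intergenic regions with a pattern minus that of regions without it, in each library (circles control, triangles TRF2KO); right, share of regions (%) called higher (red) or lower (blue) in TRF2KO by the number of CAGCTG occurrences in 300 bases. The E-box offset is 0.27 and 0.26 in the controls and 0.13 and 0.11 in TRF2KO, and the share called lower goes from 5.46% with no occurrence to 27.2% with 3 or more.

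Regions with AP-1 had an offset of 0.06 and 0.05 in the controls and 0.19 and 0.14 in TRF2KO, a difference of 0.11 (exact permutation test, 2 libraries each, p = 0.33, the smallest possible). Of the 1768 regions with AP-1, 8.54% were called higher and 6.56% lower, and of those without it 4.66% and 8.50%. FOX offsets were -0.03 and -0.05 in the controls and 0.10 and 0.04 in TRF2KO, over 435 regions. RUNX offsets overlapped between the genotypes, at -0.06 and -0.08 against -0.03 and -0.07. In intronic distal regions the offset differed between genotypes by 0.11 for AP-1 and 0.12 for FOX, so neither was limited to open intergenic regions. Within 3 kb of a start these differences were -0.01 and 0.03.

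CTCF regions were called least often. Of the 969 with the pattern, 45 were called (4.64%, exact 95% interval 3.41 to 6.16%), 18 higher and 27 lower, and of the 8474 without it 14.5% (interval 13.8 to 15.3%). The share was lower with CTCF in each quintile of rank, for instance 2.26% against 14.2% in the middle one and 9.56% against 24.3% in the highest. The offset of CTCF regions was 0.00 and -0.03 in the controls and 0.13 and 0.07 in TRF2KO, a difference of 0.11 (exact permutation p = 0.33), and of 0.06 with the pattern counted in 150 bases, where the genotypes overlapped (p = 0.67). Summits of CTCF regions also varied less between libraries, with a median span of 33 bp against 46 bp. The lower share of calls was not particular to open intergenic regions. Of intronic distal regions, 6.16% with CTCF and 12.9% without it were called, and within 3 kb of a start 5.33% and 9.91%.

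Over all open intergenic regions, the median rank was 57.1 and 61.7 in the controls and 55.0 and 54.8 in TRF2KO, a difference of -4.46. Over all shared regions it was 64.9 and 69.0 against 62.9 and 62.5, so the drop was not particular to open intergenic regions. The control lists are the longer ones (89161 and 100522 peaks against 84777 and 84103), and a rank within a list can move with its length. The part of list length in the rank difference was not tested. Against intronic distal regions, the median log2 fold of open intergenic regions was higher by 0.03 and 0.03 in the controls and by 0.10 and 0.11 in TRF2KO. This offset differed by 0.08 (exact permutation p = 0.33), and by 0.004 (p = 0.67) when all other shared regions were the comparison. In calls, 3.39% of the 9550 intronic distal regions were higher and 8.99% lower, and of the 1231 intergenic distal regions with a TRF2 peak 9.50% were higher and 8.77% lower.

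Neighbours were compared only where both were called. Of 158 pairs of neighbouring open intergenic regions within 50 kb that were both called, 134 (84.8%) had the same direction. The share that the 509 higher and 768 lower calls alone would give was not computed, and no excess was tested. In the stretch between Cdh26 and Gm14314, 8 of 20 regions were lower and 1 higher, with a median log2 difference of -0.31. In the stretch between Gm12506 and Gm12519, nearest to Klf4, 6 of 17 were higher and 2 lower. Near Rnd3 5 of 21 were higher and none lower, and near Camk1g none of 29 was higher and 1 was lower. Over all shared regions 4.73% were higher and 7.17% lower. These stretches and genes are examples from those with the most regions, named with their calls known. Others had few calls, such as the stretch between Bbs9 and Bmper, where none of 17 was higher and 1 was lower.

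Gene lists were then read by nearest coding start. Of 13 myogenic factor genes, 8 were nearest to 13 regions, 1 of which was called (7.69%, against 11.9% of all shared regions). That region, 23.8 kb from Myog (chr1:134265850-134266232), had folds of 17.5 and 16.9 in the controls and 8.23 and 7.04 in TRF2KO (log2 difference -1.03, SE 0.18, limma adjusted p = 8.01e-04) and holds an E-box. Myog encodes myogenin, which drives differentiation. The 3 regions nearest to Pax7 were not called. The strongest of them, 25.04 kb away, had 30.1 and 29.5 against 32.0 and 32.0.

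Of 22 genes of the satellite cell surface and of quiescence, 12 were nearest to 58 regions, with 3 higher and 2 lower (8.62% called, also under the background of 11.9%). Cxcr4, a chemokine receptor gene, had 15 regions (1 higher) and Gas1, a cell surface growth arrest gene, had 11 (1 higher). Both falls were near Fgfr4, the main FGF receptor of myogenic cells. The deeper one (chr13:55176291-55176647) went from 10.6 and 9.54 to 3.66 and 4.54. For the Notch pathway, 8 of 11 genes were nearest to 39 regions, with 1 higher and 2 lower (7.69% called, against the same 11.9%). Of the 5 near the receptor gene Notch1, 1 was lower (20.9 and 20.9 against 10.7 and 9.76). Jag1, a ligand gene, had 13 regions, 1 of them higher.

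The list of AP-1 and early response genes had 11 called of 30 regions, 7 higher and 4 lower (36.7%, against 11.9% of all shared regions). Klf4, a zinc finger factor gene, accounted for 8 of the 11, so the count is mostly that of one neighbourhood. Near Klf4 the region at chr4:55721588-55722786 had folds of 8.28 and 5.76 in the controls and 18.1 and 11.3 in TRF2KO (log2 difference 1.20, SE 0.22), and that at chr4:55732929-55733804 had 10.8 and 11.5 against 19.2 and 19.7. A region 14.0 kb from Fosl2, an AP-1 subunit gene, was lower (51.1 and 47.3 against 29.7 and 24.97).

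For the list of 50 developmental transcription factor genes, 39 were nearest to 237 regions, of which 15 were higher and 16 lower (13.1% called, close to the 11.9% of all shared regions). The single genes named here are examples within that share and were chosen after their values were seen, apart from Tshz3 and Tbx3. Near Tshz3 4 of 29 were higher, near Sox4 3 of 5 were higher and near Tbx3 3 of 15 were lower. A region 53.1 kb from Nfib, a factor gene of the NFI family, went from 34.8 and 28.3 to 14.6 and 15.4 (log2 difference -0.97, SE 0.14). Of 12 sarcomere genes only Myh2 was nearest to any region (3, none called), and of 4 chromatin loop factor genes 3 were, with 1 region each and none called.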

How the data were processed

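ATAC-seq peaks were used for 4 MuSC libraries and CUT&Tag peaks for 3. Per the labels, ATAC-seq reads were aligned to mm10 with Bowtie2 2.5.4, CUT&Tag reads with Bowtie2 2.4.4 after cutadapt 4.4. The authors called narrow peaks with MACS3 (3.0.2 and 3.0.0), whose deposited lists give a fold (a ratio of summit pileup to background) and −log10 p and −log10 q values, and peaks with GoPeaks and SEACR 1.3, used here as intervals. DiffBind 3.10.1 made 1 pooled consensus list per genotype. The deposited SEACR signal and consensus score columns were not used. ENCODE blacklist regions were removed only before the consensus step, by the methods. Depth is not in the lists, and summit pileups were recovered from fold and p within 0.01.

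Here peaks were merged at 1 bp of overlap, and a region took its highest peak in each library. Genotypes were compared with limma 3.58.1 (R 4.3.3, trended variance) on quantile-normalized log2 fold without a further pseudocount, and per-library values with an exact two-sided permutation test (SciPy 1.17.1). The limma fit was first run on simulated data. Their noise was independent and of the same size in every region, so that run does not show the rate of false calls here. The p-values rest on the spread between 2 libraries per genotype, which limma moderates with the variance of all shared regions. The median standard error by limma over the open intergenic regions was 0.20, no larger than the 0.22 from counting error alone. The number of mice per library was not given, so spread between mice was not measured. Shares carry exact binomial 95% intervals. Patterns were read in the RefSeq copy of mm10. Named regions were the 10 highest in mean rank, the stretches and nearest coding genes with most regions, up to 10 called regions per direction by smallest p, and up to 4 genes per list with most regions. Other named list genes were chosen after their values were seen. The members and lists were chosen with earlier results of these data known. Same-numbered libraries did not deviate together (correlation 0.01). The value of 1 gene of the other-cell list is not reported here.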

Additional observations from a re-analysis of the deposited data

How the results depend on the processing

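The number of open intergenic regions fell to 2146 with a limit of 50 kb from every start and stayed within 1.5 times of 9443 under the other settings, with 9820 to 10321 without 1 library. The regions called between genotypes numbered 7181 and went to 15775 with median centring and to 0 without any 1 library (0 to 0). Calls among the open intergenic regions changed for higher to 1013 with median centring, 195 with no normalization and 115 on percentile ranks, for lower to 1165 on percentile ranks, and for both to 0 without any 1 library (0 to 0). The fit then has 1 library in an arm, assumed to vary like the other genotype. The share with a pattern follows the window. It was 7.83% and 11.8% for CTCF in 150 and 600 bases, 12.6% and 25.6% for AP-1, 34.2% and 65.2% for the E-box, and 0.402% and 0.943% for NFI. The SEACR difference ran from -4.91 to 5.07 points without 1 library and changed sign. The rank difference was -6.77 without control 1 and -2.14 without control 2, and the GoPeaks difference was -10.7 points when 50% of a region had to be covered. The offset from other distal regions was 0.004 when all other shared regions were the comparison (exact permutation p = 0.667). The offsets of the E-box, AP-1 and CTCF patterns kept their sign under all of their alternatives, which were added after the data were seen. The differences nearest to 0 were -0.04 for CAGGTG alone and 0.06 for CTCF in 150 bases, where the genotypes overlapped (exact permutation p = 0.667).

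With the replicate number as a block, 8404 regions were called, 621 open intergenic regions higher and 878 lower. The block left the rank difference at -4.46 and the other differences of means as they were. The labels do not say that a number marks a shared animal or day, and same-numbered libraries did not deviate together. With 2 libraries per genotype, no exact test could reach 0.05.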

Other observations

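In the open intergenic regions, the match nearest to the summit lay on the lower-coordinate side in 74.1% to 75.5% of regions with CTCF in the 4 libraries. For AP-1 this was 64.8% to 66.1% and for the E-box 59.8% to 61.6%. Matches on both strands were pooled. The labels do not say how MACS shifted or extended reads, and the part of that in these shares was not tested.

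Soft-masked repeats were few in these regions. More than 50% of the 300 bases was masked in 2.47% of open intergenic regions, against 1.497% of intronic distal regions and 4.96% of intergenic distal regions with a TRF2 peak. An IgG peak overlapped 3.41% of the latter, against 0.0847% of the open intergenic regions. These groups were parted by TRF2 peaks, which come from the same assay as the IgG peaks.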
